A study of Mus musculus with 6 samples.

Results

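The DNA recovered with an anti-SMAD1/5 antibody was compared with the DNA recovered with an anti-SMAD4 antibody, probe by probe, on Agilent mouse promoter arrays. Each spot on a SMAD1/5 array was matched by its feature number to the spot of the same probe on the SMAD4 array of the same design. A probe was kept where neither array carried an outlier flag and both immunoprecipitates stood well above background. This left 454699 of 474380 probes, 226745 on array 1 and 227954 on array 2. Each immunoprecipitate was put on a log2 scale and centred on its array's median, and every difference is SMAD1/5 minus SMAD4 on that scale.

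The cells were the mouse embryonic stem line R1, kept undifferentiated without feeders in Knockout serum replacement and leukemia inhibitory factor, and no treatment and no altered genotype was labelled for any group. Of the 6 arrays of the series, 4 were compared here: SMAD1/5 array 1 and array 2, and SMAD4 array 1 and array 2. The antibody named for SMAD1/5 was raised against the linker stretch of human SMAD1, and the SMAD4 antibody against that of human SMAD4. For each, 10 µg of antibody was used on fragments averaging 300 to 500 bp. The immunoprecipitate was labelled red (Cy5) and whole cell extract, the input, green (Cy3), with no dye swap.

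Each antibody had 1 biological replicate. Arrays 1 and 2 carry different probes and are not replicates of each other, so no difference could be tested against replicate spread and no p-value is given. An SD given with a gene is the spread over its probes on those arrays, not over experiments. Extraction software also differed, with version 9.1.3.1 and its CGH protocol for SMAD1/5 but 9.5.3.1 and its ChIP protocol for SMAD4, so antibody and extraction cannot be told apart. The labelled cell type could not be checked against marker genes because DNA, not RNA, was measured.

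SMAD1 and SMAD5 are the receptor-activated SMAD proteins of bone morphogenetic protein (BMP) signalling. They carry the signal from the receptor to the nucleus together with SMAD4, the partner that BMP and Activin, Nodal or TGF-beta signals share. SMAD2 serves the Activin, Nodal and TGF-beta branch. In mouse embryonic stem cells BMP signalling is known for inducing the Id genes and for supporting self-renewal alongside leukemia inhibitory factor. SMAD proteins bind DNA weakly, at CAGAC elements and at GC-rich elements, and usually with partner factors.

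To show the kind of sequence the arrays tiled, RefSeq promoters of 5 genes that the comparison turns on are printed, from 250 bases before to 50 after the annotated start (build GRCm38.p6). Id3, Zeb2 and Cdx2 are BMP targets, the last 2 being those with the highest and the lowest difference, and Slc22a29 and Rragd lay far from 0 in opposite directions. Capitals mark the SMAD-binding letters CAGAC, the palindrome GTCTAGAC, the GC-rich letters GGCGCC and the related GGAGCC, on either strand.
Id3 (chr4:136143572-136143871, plus strand): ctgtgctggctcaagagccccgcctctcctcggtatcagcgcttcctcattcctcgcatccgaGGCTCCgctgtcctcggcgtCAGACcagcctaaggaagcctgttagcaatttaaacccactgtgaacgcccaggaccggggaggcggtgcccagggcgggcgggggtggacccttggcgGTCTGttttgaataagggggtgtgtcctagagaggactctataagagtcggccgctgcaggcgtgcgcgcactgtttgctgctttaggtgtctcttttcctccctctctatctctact
Zeb2 (chr2:45117393-45117692, minus strand): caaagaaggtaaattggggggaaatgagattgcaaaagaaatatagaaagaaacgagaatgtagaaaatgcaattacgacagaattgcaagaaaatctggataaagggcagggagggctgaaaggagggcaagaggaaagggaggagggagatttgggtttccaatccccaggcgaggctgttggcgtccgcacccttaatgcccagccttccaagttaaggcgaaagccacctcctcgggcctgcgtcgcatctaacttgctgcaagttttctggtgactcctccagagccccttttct
Cdx2 (chr5:147307200-147307499, minus strand): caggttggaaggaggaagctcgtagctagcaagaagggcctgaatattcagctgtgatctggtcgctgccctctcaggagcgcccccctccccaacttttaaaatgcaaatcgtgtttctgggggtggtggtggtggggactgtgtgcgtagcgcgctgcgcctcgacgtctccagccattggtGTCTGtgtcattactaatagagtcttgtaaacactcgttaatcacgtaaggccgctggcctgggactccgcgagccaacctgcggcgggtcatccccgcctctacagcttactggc
Slc22a29 (chr19:8218851-8219150, minus strand): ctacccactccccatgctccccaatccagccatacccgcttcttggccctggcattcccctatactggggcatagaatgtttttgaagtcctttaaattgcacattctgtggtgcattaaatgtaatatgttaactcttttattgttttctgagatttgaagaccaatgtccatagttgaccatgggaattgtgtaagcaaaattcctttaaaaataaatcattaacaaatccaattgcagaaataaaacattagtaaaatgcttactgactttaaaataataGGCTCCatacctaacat
Rragd (chr4:32982748-32983047, plus strand): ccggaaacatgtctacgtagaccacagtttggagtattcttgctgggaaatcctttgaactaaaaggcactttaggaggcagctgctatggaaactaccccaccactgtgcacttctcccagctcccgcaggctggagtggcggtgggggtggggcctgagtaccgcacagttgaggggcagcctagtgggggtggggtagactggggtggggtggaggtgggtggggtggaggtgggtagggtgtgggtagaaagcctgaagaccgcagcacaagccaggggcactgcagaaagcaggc
The Id3 stretch held 2 CAGAC and 1 GGAGCC, Cdx2 held 1 CAGAC, Slc22a29 held 1 GGAGCC, and Zeb2 and Rragd held none. Among 27025 RefSeq promoters of 300 bases, 49.7% held CAGAC, 30.5% GGAGCC, 12.0% GGCGCC and 0.211% GTCTAGAC, so a CAGAC match is common. A match is a description of letters and no binding site.

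The immunoprecipitates resembled each other, but the resemblance did not remain once each was set against its own input. Over probes Pearson's r between the SMAD1/5 and SMAD4 immunoprecipitates was 0.64 on array 1 and 0.60 on array 2, and over 16680 gene means it was 0.80. The SMAD4 immunoprecipitate correlated more closely with its own input (mean r of both arrays 0.80) than with the SMAD1/5 immunoprecipitate, and the SMAD1/5 immunoprecipitate reached 0.60 with its own input. After the log2 ratio of each immunoprecipitate over its own input was taken, r between the antibodies was 0.031 over probes and -0.026 over genes. Probes were filtered on the immunoprecipitates alone, so ratios here and below include inputs not above background, more so for SMAD1/5. These correlations run across probes or genes that share the array, the probe's base composition and neighbouring DNA, and they are descriptions.

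The same held for the brightest DNA. Of the brightest 1% of probes on each array, 4547 in all, the immunoprecipitates shared 3535 (77.7%) and the inputs 1087 (23.9%). The SMAD4 immunoprecipitate shared 3642 (80.1%) with its own input, and the SMAD1/5 immunoprecipitate 1206 (26.5%). In the ratios over own input the antibodies shared 127 of the top 4547 (2.79%).

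The inputs themselves differed. Between 72.3% and 87.0% of probes stood above background in the SMAD1/5 input, against 99.6% and 99.7% in the SMAD4 input, and r between the inputs was 0.40 over probes. The centred SMAD1/5 input exceeded the SMAD4 input by 0.66 in the median gene, so an input difference is read against 0.66, not against 0. The difference between immunoprecipitates rose and fell with the difference between inputs (r 0.42 over probes and 0.48 over genes). The input difference is therefore printed beside the main groups below, and its part in the results was not tested.

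The 8 genes highest with both antibodies are given here, a number set by the naming rule and not by a threshold. Ranked by the lower of both values among genes with a usable symbol, Ermard came first, at 3.72 with SMAD1/5 and 2.95 with SMAD4 over 8 probes. Tcte3, also on chromosome 17 and a dynein light chain gene, stood at 2.86 and 2.33 over 28 probes. Both also stood high in the inputs, Ermard at 4.74 and 3.43 and Tcte3 at 3.86 and 2.75. Aplp1, a relative of the amyloid precursor protein, followed at 2.77 and 2.21, and the class I antigen gene H2-Q10 at 2.07 and 1.89. Setd6 (1.80 and 1.85), the repressor gene Erf (1.82 and 1.79), B3gnt9 (1.84 and 1.71) and B4galt2 (1.73 and 1.71) completed the list. All 8 genes stood high in both inputs, from 1.85 (Setd6) to 4.74 (Ermard) for SMAD1/5 and from 1.298 (Erf) to 3.43 (Ermard) for SMAD4. None of these 8 genes differed 2-fold between the antibodies, and their differences ran from -0.06 for Setd6 to 0.77 for Ermard.

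Of all kept probes 93899 (20.7%) were at least 2-fold higher with SMAD1/5 and 91534 (20.1%) at least 2-fold higher with SMAD4. A gene counted as different where the mean over its kept probes, at least 5, was at least 1 on the log2 scale, which is 2-fold. Of 16680 genes, 403 (2.42%) were higher with SMAD1/5 and 167 (1.00%) were higher with SMAD4, so 70.7% of these genes were higher with SMAD1/5. That share was 82.8% with both arrays scaled to the same robust SD, 81.1% after removal of the trend on brightness, 84.9% with medians over probes, 99.8% with normexp background correction and 45.2% without the filter on dim probes. In ratios over own input it was 6.10%, from 143 genes higher with SMAD1/5 and 2203 higher with SMAD4, and in the authors' deposited log2 values 5.10%, from 24 and 447. The inputs alone put 5052 genes (30.3%) at least 2-fold higher with SMAD1/5 and 57 (0.342%) higher with SMAD4.

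None of the 25 BMP target genes passed 2-fold in either direction, beside 2.42% and 1.00% of all genes, so a count of 0 in a list this short is near that of all genes. Their median difference was 0.01 beside -0.02 over all genes, their median input difference was 0.97, and they ran from -0.61 for Cdx2 to 0.77 for Zeb2. The Id genes, which encode inhibitors of basic helix-loop-helix factors, lay close to 0. Id1 stood at -0.14 with SMAD1/5 and -0.13 with SMAD4 over 27 probes, a difference of 0.00 ± 1.36 (SD over probes). Id2 (0.15), Id3 (0.18) and Id4 (0.21) were slightly above 0, each with an SD over probes above 1.1.

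Id3 was not uniform along its promoter. From 2000 bp upstream of its start onward, 19 of 24 probes were higher with SMAD1/5, with a mean of 0.54 ± 0.90. Further upstream 9 of 16 probes were lower, with a mean of -0.35 ± 1.63. The SMAD1/5 input at Id3 exceeded the SMAD4 input by 1.98, and the difference of ratios over own input was -1.36. The stretch printed above for Id3 falls in the part where most probes were higher with SMAD1/5.

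The inhibitory SMAD genes, which BMP signals induce as feedback, split around 0 with Smad6 at -0.42 ± 1.14 (43 probes) and Smad7 at 0.17 ± 1.03 (36 probes). Zeb2, which encodes a SMAD-binding zinc finger repressor, had 32 of 42 probes above 0 and a difference of 0.77 ± 1.00. The input difference at Zeb2 was 1.11, and the gene stood at 0.10 in ratios over own input and 0.02 in the authors' values. Cdx2, a trophectoderm regulator, had 24 of 41 probes below 0 and a difference of -0.61 ± 1.53. Kdm6b, a histone H3 lysine 27 demethylase gene, was bright with both antibodies, at 0.86 and 1.03 over 84 probes. Its inputs were similarly bright, at 1.03 and 1.07 in the same order, and its ratios over own input were 0.19 and 0.04. The gene lies on chromosome 11, which was bright in both immunoprecipitates and both inputs. Dpysl2, a neural cytoskeleton gene that is no member of the list, stood at -0.13 and -0.28 over 17 probes. Dlx3 (-0.46, 29 of 35 probes below 0) and Dusp9 (-0.40, 30 of 41 below 0) had most probes on the SMAD4 side. Their input differences were -0.39 and 0.99, and over own input Dlx3 stood at 0.18 and Dusp9 at -1.13. With own-input ratios 4 of the 25 genes, Id3, Msx2, Cdx2 and Dusp9, passed 2-fold on the SMAD4 side, beside 13.2% of all genes. In the authors' values Msx2 and Cdx2 did, beside 2.68% of all genes. In a list this short such counts do not set the BMP targets apart from genes at large.

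None of the 22 Activin and Nodal targets measured passed 2-fold either way, again near the share of all genes (2.42% and 1.00%). Their median was -0.06, with a median input difference of 0.40. Foxh1, the DNA-binding partner of SMAD2, was the lowest at -0.79 ± 1.35 over 17 probes, 9 of which it shared with Ppp1r16a. Lefty2, a Nodal antagonist, stood at 0.15 with SMAD1/5 and 0.91 with SMAD4, a difference of -0.76, while Lefty1 stood at 0.85 and 0.97. Skil, which encodes a SMAD corepressor, was the highest at 0.63 ± 1.21. Lefty2 passed 2-fold on the SMAD4 side when probes above background in both channels alone were used, but it stood above 0 in ratios over own input (0.31) and in the authors' values (0.29), and its inputs were 0.80 for SMAD1/5 and 1.44 for SMAD4. Foxh1 passed it in the ratios over own input and in the authors' values, where 13.2% and 2.68% of all genes did.

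Components of the pathway gave 0 of 28 genes past 2-fold in either direction, with a median of 0.03 and a median input difference of 0.77. For this list and the next ones, all short, a count of 0 is near the 2.42% and 1.00% of all genes. Among the receptors Bmpr1a, a type I BMP receptor, had the largest value at 0.85 ± 1.11, from 0.83 with SMAD1/5 and -0.03 with SMAD4. Acvrl1, another type I receptor gene, stood at -0.65 and the type II receptor gene Tgfbr2 at -0.50. These were the pathway genes past 2-fold on the SMAD4 side in ratios over own input, beside 13.2% of all genes. The ligand gene Gdf3 stood at -0.46. DNA-binding partners of SMADs gave 0 of 28, and pluripotency genes 0 of 28, with Pou5f1 at -0.58 (24 of 35 probes below 0) and Sox2 at 0.12 (22 of 38 above 0). The mesoderm and endoderm (25 genes), ectoderm (27), trophectoderm (14) and WNT, FGF and Notch (28) lists also held no gene past 2-fold.

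A few members of the other lists passed it, which 2.42% and 1.00% of all genes did. Setdb1, a histone H3 lysine 9 methyltransferase gene, was the single member of 27 chromatin regulators past 2-fold, at 1.19 ± 1.05 with 8 of 8 probes above 0. Of 22 housekeeping genes Sdha (1.16, 24 of 26 probes) and Hprt (1.02, 21 of 23 probes) were higher with SMAD1/5. Of 84 ribosomal protein genes 1 passed 2-fold in each direction (1.19%), and Rpl24 was the one higher with SMAD1/5 (1.52 ± 0.59, all 14 probes above 0). Of 46 replication histone genes H4c2 (1.32) and H3c2 (1.04) were higher with SMAD1/5. Over own input H3c2 (1.32) remained past 2-fold, H4c2 (0.92) and Sdha (0.21) were below it, and Setdb1 (-0.49), Hprt (-0.02) and Rpl24 (-0.001) crossed 0.

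The genes higher with SMAD1/5 were led by chemosensory families. Olfactory receptor genes, large clusters of single-exon genes for odour receptors, made up 205 of the 403 genes (50.9%) and 4.95% of all genes measured. Of 825 measured, 205 were higher with SMAD1/5 and 0 higher with SMAD4, with a median of 0.62. In ratios over own input, however, 3 were higher and 143 lower, beside 0.857% and 13.2% of all genes. Their median there was -0.37 beside -0.33 over all genes. In the authors' values 1 was higher and 20 lower, beside 0.144% and 2.68% of all genes. The family was dim with both antibodies, at a median of -0.99 with SMAD1/5 and -1.65 with SMAD4, and its input difference was 1.34.

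Olfr741 had the largest difference of any gene, 3.20 ± 2.31 over 6 probes. It stood at 0.60 with SMAD1/5 and -2.60 with SMAD4, and at 4.14 and -2.21 in the inputs. Olfr787 (2.43), Olfr251 (2.05) and Olfr972 (2.02) followed. Of 152 vomeronasal, taste and trace amine receptor genes 18 (11.8%) were higher with SMAD1/5 and 2 (1.32%) higher with SMAD4, beside 2.42% and 1.00% of all genes, with a median input difference of 1.304. They were led by Vmn1r22 and Vmn1r225 at 1.66 each. Of 32 keratin-associated protein genes, which encode hair proteins, 4 (12.5%) were higher with SMAD1/5, with a median input difference of 1.25, and all 4, Krtap6-5, Krtap19-1, Krtap19-2 and Krtap19-3, lie on chromosome 16. Many genes of these families are close copies of each other, and whether a probe matches more than its own gene was not tested.

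Outside these families Slc22a29, a gene of the organic anion transporter family, had the largest difference at 2.13 ± 1.67, with all 6 probes above 0. It stood at 0.46 with SMAD1/5 and -1.68 with SMAD4. Its probes were not alike: at the probe of largest difference it was 4.78, where SMAD4 stood at -6.21, and at the probe of smallest it was 0.59. The gene stood at 0.75 in ratios over own input.

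Tc2n followed at 2.10 ± 1.37 (11 of 12 probes above 0), from -0.62 with SMAD1/5 and -2.71 with SMAD4. Among the next genes were Skint3 (1.95, 5 of 21 probes kept), Crisp3 (1.80), Mir448 (1.77), Ugt2b37 (1.75), Crisp1 (1.71), Eif2s3y (1.68) and Samt3 (1.66). Crisp1 and Crisp3 encode cysteine-rich secretory proteins of the reproductive tract, and Ugt2b37 encodes a glucuronosyltransferase. Slc22a29 and the genes named after it were all dimmer than the array median with SMAD4, between -4.54 and -1.68, and all had a higher SMAD1/5 than SMAD4 input, by 1.41 to 5.36. In ratios over own input Skint3 (-2.97), Crisp3, Mir448, Crisp1 and Samt3 turned to the SMAD4 side.

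Across all 403 genes the median was -0.66 with SMAD1/5 and -1.94 with SMAD4. The input difference had a median of 1.73, and 378 of 403 genes lay above the 0.66 of the median gene. In ratios over own input 18 of the 403 stayed at least 2-fold higher with SMAD1/5, 164 kept their sign, and 48 were at least 2-fold higher with SMAD4. Of all genes 0.857% were past 2-fold on the SMAD1/5 side in these ratios and 13.2% on the SMAD4 side. The ratios contain the immunoprecipitate difference by which the 403 were chosen, so these counts are descriptions. Array 1 gave 107 of these genes (1.27% of its 8397) and array 2 gave 296 (3.57% of its 8283), beside 68 (0.810%) and 99 (1.20%) higher with SMAD4.

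The genes higher with SMAD4 showed another pattern of levels. Across the 167 genes the median was -0.71 with SMAD1/5 and 0.47 with SMAD4. Members lay on both sides of the array median with SMAD4, such as L1cam at -0.74 and Wdr83os at 1.64. Their input difference had a median of -0.03, below the 0.66 of the median gene. On that measure 139 of 167 lay on the SMAD4 side of the median gene, 52 of them by at least 2-fold. No olfactory receptor gene was among them. In ratios over own input 66 of 167 stayed at least 2-fold higher with SMAD4, 154 kept their sign and 0 crossed to 2-fold the other way. The ratios contain the immunoprecipitate difference by which the 167 were chosen. That choice favours keeping the sign, so these counts are descriptions. In these ratios 2203 of all genes (13.2%) were past 2-fold on the SMAD4 side and the median of all genes was -0.33, so signs there lean to SMAD4 for genes at large.

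Wdr83os had the lowest difference at -2.51 ± 1.43, with all 7 probes below 0, 2 of them shared with Wdr83. It stood at -0.87 with SMAD1/5 and 1.64 with SMAD4, but its SMAD4 input was also high (2.16 against 0.06), and in ratios over own input it stood at 0.02. The microRNA loci Mir323 (-2.14, 5 probes) and Mir377 (-1.62, 9 probes), both on chromosome 12, had all probes below 0. Over 200 microRNA loci, 8 (4.00%) were higher with SMAD1/5 and 8 (4.00%) higher with SMAD4, beside 2.42% and 1.00% of all genes, with a median of -0.05 and a median input difference of 0.72.

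Rragd, which encodes a Rag GTPase of amino acid sensing, stood at -1.58 with SMAD1/5 and 0.20 with SMAD4 over 25 probes, a difference of -1.78 ± 1.82. The difference was concentrated upstream. At 12 probes more than 2000 bp upstream of the start the mean was -2.80 ± 1.75, with SMAD1/5 at -2.46 and SMAD4 at 0.34, and at the other 13 probes it was -0.85 ± 1.35. The mean inputs of the upstream probes were -0.34 for SMAD1/5 and -0.36 for SMAD4. Inputs this close lie on the SMAD4 side of the median gene, whose input difference was 0.66. Over own input Rragd stood at -1.86 and in the authors' values at -1.02.

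Apoc2, an apolipoprotein gene, stood at -1.78 ± 0.84 with all 7 probes below 0, and at -1.72 in ratios over own input. Zdhhc1, a palmitoyltransferase gene, stood at -1.51 ± 0.87 with all 24 probes below 0, from -0.41 with SMAD1/5 and 1.10 with SMAD4. Its probes lay 20010 to 24348 bp downstream of the start the array annotates, and in ratios over own input it stood at -0.42. The neural adhesion gene L1cam (-1.54), Sdhaf2 (-1.49), an assembly factor of succinate dehydrogenase, Ppef2 (-1.41) and the sialyltransferase gene St8sia5 (-1.41) completed the lowest 10. With normexp background correction 2 genes in all stayed past 2-fold on this side, and L1cam (0.17) and Mir323 (0.04) crossed 0.

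The SMAD2 immunoprecipitate, read at the same probes, gave a further level for each gene. Of the 401 genes higher with SMAD1/5 that had a SMAD2 value, SMAD4 lay at least 1 below SMAD2 in 200, and SMAD1/5 lay at least 1 above SMAD2 in 28. Of the 167 genes higher with SMAD4, SMAD1/5 lay at least 1 below SMAD2 in 132, and SMAD4 lay at least 1 above SMAD2 in 0. The median of SMAD4 minus SMAD2 was -0.996 in the first group and -0.11 in the second, beside -0.23 over all genes. The median of SMAD1/5 minus SMAD2 was 0.25 and -1.24, beside -0.27. Over all 16674 genes with a SMAD2 value the same counts were also lopsided, with SMAD4 at least 1 below SMAD2 in 608 and above in 1, and SMAD1/5 below in 843 and above in 53. The genes were chosen by the same SMAD1/5 and SMAD4 values, so these counts are descriptions that support nothing further. The SMAD2 arrays share the software version of the SMAD1/5 arrays, and the extraction text of both SMAD2 arrays names the anti-SMAD1/5 antibody while their titles and sample type name SMAD2. Over probes SMAD2 correlated more closely with SMAD4 (r 0.78) than with SMAD1/5 (r 0.57).

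Probes that stood above background with SMAD4 alone were left out of these values. There were 18124 of them (3.82% of all probes), against 617 (0.130%) above background with SMAD1/5 alone. For olfactory receptor genes the share with SMAD4 alone was 10.3%, and for BMP targets 2.43%. Since a probe not above background has only a bound, each was set against the lowest signal well above background on that array or its own signal, whichever was higher. On that bound 15852 of the 18124 (87.5%) were at least 2-fold higher with SMAD4, and 616 of the 617 (99.8%) at least 2-fold higher with SMAD1/5, directions that the filter itself fixes. Without the filter 253 genes were higher with SMAD1/5 and 307 higher with SMAD4, and olfactory receptors fell to 123 higher and 3 lower.

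Single windows of about 1 kb held larger differences than whole genes, but they average fewer probes. A window needed at least 3, while the median gene had 27. Means of fewer values spread more widely, and the part of this in the window values was not tested. Of 407293 windows (the mean of kept probes within 500 bp, at least 3), 40801 (10.0%) were at least 2-fold higher with SMAD1/5 and 49580 (12.2%) higher with SMAD4. The inputs put 144200 windows (35.4%) and 32953 (8.09%) past the same line. Positions are those of the array annotation, in a build not given in the sources used here. A window at chr12:105696649-105697597, 3269 bp downstream of the start of the histidine methyltransferase gene Setd3, stood at 3.41 ± 0.45 over 5 probes, all between 2.72 and 3.84. It had 1.35 with SMAD1/5 and -2.06 with SMAD4, with an input difference of 2.73.

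Windows at Olfr911-ps1 (chr9:38446613-38447349, 3.52) and Olfr1467 (chr19:13063152-13063979, 3.37) were the other windows highest with SMAD1/5, with input differences of 6.12 and 6.06. Among the windows lowest were those at Ms4a15 (chr19:10658969-10659778, -3.59 ± 1.55) and Card19 (chr13:48701533-48702106, -3.56 ± 1.15). Their SMAD1/5 values were -3.31 and -3.19 and their SMAD4 values 0.28 and 0.37. Their input differences, -0.24 and -1.39, lay below the 0.66 of the median gene, as that of the Setd3 window lay above it, and each window rests on 5 probes.

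Differences were local along the DNA. Probes 100 to 200 bp apart correlated in their difference with r 0.42, which fell to 0.22 at 200 to 300 bp, 0.10 at 300 to 500 bp and 0.05 at 500 to 1000 bp. The input difference fell alike, from 0.41 to 0.03. The SMAD4 immunoprecipitate by itself kept r 0.22 at 4000 to 8000 bp, and SMAD1/5 kept 0.06. Within genes of at least 10 probes the means of odd and even probes correlated with r 0.64 over 16171 genes. For the input difference r was 0.59 over the same genes, so this likeness was not particular to the immunoprecipitates. Of 447 genes whose odd probes were at least 2-fold higher with SMAD1/5, the even probes were above 0 in 436 and also past 2-fold in 185. Of 227 on the SMAD4 side they were below 0 in 214 and past 2-fold in 45. Of all 16680 genes, by the mean of all kept probes, 7975 were above 0. By that mean 2.42% and 1.00% were past 2-fold with SMAD1/5 and with SMAD4.

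Both immunoprecipitates were brighter at start sites. Within 250 bp of a start SMAD1/5 exceeded its level 2000 to 4000 bp upstream by 0.62 and SMAD4 by 0.72, so the difference fell by 0.10 at starts. That fall came from array 2 (-0.19), with -0.01 on array 1. The inputs rose at starts as well, by 1.09 for SMAD1/5 and 0.93 for SMAD4. The immunoprecipitates therefore rose less at starts than their own inputs did.

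Chromosomes differed little. Over the 19 autosomes the median difference ran from -0.08 on chromosome 11 to 0.22 on chromosome 3. Chromosome X stood at 0.30 and the 183 probes of Y at 0.85, with input differences of 1.01 and 1.09, and 31 of the 403 genes higher with SMAD1/5 (7.69%) lay on X, beside 3.42% of all genes. Chromosomes 8 and 11 were bright with both antibodies, at 0.53 and 0.56 and at 0.49 and 0.64, and in both inputs. The difference also moved with probe length. Its mean was 0.28 for probes of 59 to 60 bases, -0.40 for 50 to 52 bases and -0.06 for 45 to 46 bases. The longest probes were also the dimmest, at -0.63 with SMAD1/5 and -0.90 with SMAD4, and the part of probe length in the gene differences was not tested.

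The share of probes within 2-fold grew with brightness, as probes higher with SMAD4 became fewer. The immunoprecipitate SD over kept probes was 1.74 and 1.61 on the SMAD1/5 arrays, against 1.36 and 1.37 on the SMAD4 arrays. Quintiles and difference are built from the same values, so unequal spread alone tilts the difference along the quintiles. The values below are descriptions, and the part of array spread in them was not tested. In the dimmest quintile of probes by the mean of both immunoprecipitates 38.2% agreed within 2-fold, and in the brightest quintile 74.5% did, beside 59.2% of all probes. The SD of the difference fell from 1.88 to 0.80 over the same range, and its median rose from -0.52 to 0.44. Probes at least 2-fold higher with SMAD4 went from 41.0% in the dimmest quintile to 3.12% in the brightest, and those higher with SMAD1/5 from 20.8% to 22.4%. The spread of this difference was not compared with replicate error, and 1 array per antibody and design limits the precision of each value.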

How the data were processed

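The deposited scanner files hold an intensity per spot and channel, which Agilent Feature Extraction had background-subtracted, detrended and dye-normalised within each array, per the file headers. Per the file headers, other deposited columns flag each spot as outlying, saturated or well above background. The authors' deposited log2 values come from limma, per the submitters' processing notes, which name no version. They correlated with log2 red over green at r 0.74 to 0.95, which gives their direction as immunoprecipitate over input; their column medians ran from -0.01 to 0.08, and their exact scale and centring stay unknown. Probe positions are in a build not given in the sources used here.

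From these, log2 processed red was centred on each array's median over kept probes, and differenced by feature number. Control spots were dropped and saturated spots kept. A gene's value is the mean of at least 5 kept probes, and 16680 of 17042 genes had one. Of 17095 names in the array annotation, 16112 were updated through a RefSeq accession, 349 matched a symbol, 370 an older symbol, and 264 kept the file's name. RefSeq promoters (GRCm38.p6) matched 77.5% of genes, under the 80% needed, so the comparison of promoter G+C share and motifs between groups is void, since too few genes had a sequence. Normexp used limma 3.58.1 with offset 50 in R 4.3.3; the rest used Python 3.11.15 with pandas 2.3.3. The scripts were tested on simulated data.

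The members and gene lists were chosen with earlier results of these data known. Genes named are the 10 highest and 10 lowest past 2-fold with 80% of probes on that side and a usable symbol, the 8 brightest with both antibodies, members of the target lists, Pou5f1, Sox2, Kdm6b and Dpysl2, up to 4 members of each other list and the 3 furthest windows each way. Some genes that the rule names are summarised only, and a few items are not reported here.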

Additional observations from a re-analysis of the deposited data

How the results depend on the processing

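Settings that used the immunoprecipitates alone moved the counts. Genes higher with SMAD1/5, 403 as reported, numbered 1090 with normexp, 739 with quantile normalisation, 883 with arrays scaled to the same robust SD, 761 with the brightness trend removed and 253 without the filter on dim probes. Genes higher with SMAD4, 167 as reported, numbered 2 with normexp, 307 without the filter and 102 with medians over probes. Normexp moved the median of all genes to 0.26 and medians over probes moved it to 0.12. Probe agreement was 0.68 with normexp. Own-input ratios gave 143 and 2203 genes, an agreement of 0.031 and a median of all genes of -0.33, and the authors' log2 values gave 24 and 447 genes, 0.045 and -0.20. Windows higher with SMAD1/5 numbered 18550 with at least 5 probes; windows higher with SMAD4 numbered 26707 with at least 5 probes, 32177 at 1000 bp, 3316 with normexp and 113174 in own-input ratios. Fewer windows were formed with at least 5 probes (236655); for the other changes the cause was not tested. The fall of the difference at start sites kept its sign in every setting run, from -0.29 to -0.03.

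Of 42 named genes past 2-fold, 22 kept their sign in every setting run and 0 stayed past 2-fold in all. In own-input ratios these crossed 0: Skint3 -2.97, Crisp3 -1.12, Mir448 -0.63, Crisp1 -0.749, Samt3 -1.11, Wdr83os 0.0238, Setdb1 -0.49, Hprt -0.0186, Olfr741 -2.9, Olfr787 -1.34, Olfr251 -0.999, Vmn1r22 -0.962, Rpl24 -0.00136, Krtap6-5 -0.647, Krtap19-3 -0.294, Zfp946 -0.162, Zfp873 -0.406, Zfp317 -0.455. In the authors' log2 values these did: Skint3 -2.24, Crisp3 -0.473, Mir448 -0.171, Crisp1 -0.14, Samt3 -0.505, Mir323 0.296, Setdb1 -0.134, Olfr741 -1.75, Olfr787 -0.559, Olfr251 -0.321, Krtap19-3 -0.127, Zfp873 -0.0705, Zfp317 -0.113. With normexp these did: Mir323 0.0439, L1cam 0.17. The cause was not tested. No paired analysis was possible because each group is 1 sample, and the numbers in the titles name array designs.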
